A study of Sus scrofa with 6 samples.

Results

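GAL3ST1, B3GALT1 and CLIP4 are 3 of the 25973 gene IDs with mRNA transcripts in the data, and they had 8 of the 72511 transcripts listed. They were picked by name because their level was higher in semitendinosus (ST) than in longissimus thoracis (LT), so their difference between the muscles is described below and was not tested. LncRNAs within 100000 bp of the 3 genes were added by position. RNA came from both muscles of 3 Min pigs, a Chinese local breed, at 210 days of age and labelled as wild type, with no treatment named, which gave 6 libraries. LT lies along the back and ST in the hind limb, and libraries with the same number were taken to come from the same pig. rRNA was removed before sequencing, and the authors gave each transcript of each library an FPKM value, which is its fragment number divided by its length and by the size of the library. FPKM of the transcripts of a gene were summed here. Each library was made from whole muscle, so a larger number of cells of a type and more RNA per cell cannot be told apart. Read counts were not used here, so the depth behind single values is unknown.

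GAL3ST1 encodes cerebroside sulfotransferase, which adds sulfate to galactosylceramide and so makes sulfatide, a lipid known best from myelin. B3GALT1 encodes a galactosyltransferase of the Golgi that joins galactose to terminal N-acetylglucosamine of sugar chains on lipids and proteins. CLIP4 encodes a member of the cytoplasmic linker proteins, whose CAP-Gly domains bind microtubules.

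Among the genes tested, GAL3ST1 was near the bottom of the range in LT and in the middle of it in ST. Its FPKM in LT was 0.0228 in pig 1 and 0.0462 in pig 2, and it was listed at 0 in pig 3. In ST it was 1.21, 1.32 and 1.35 in pigs 1, 2 and 3. The muscles did not overlap, and the lowest ST value was 26.3 times the highest LT value. The difference on the log2(FPKM + 0.1) scale, the scale of every log2 difference below, was 3.52 (SE 0.27, 3 libraries per muscle). In pigs 1, 2 and 3 it was 3.42, 3.28 and 3.86. By mean FPKM, GAL3ST1 lay above 1.39% of the 19672 genes tested in LT and above 47.0% in ST. Genes tested are those above 0.1 FPKM in at least 1 library, which GAL3ST1 was only in ST. Its low place in LT thus depends on this filter, which leaves out genes that are low in both muscles. Since its LT values lie below the 0.1 that was added, the size of this difference depends on that number, with 5.62 for 0.01 and 1.16 for 1 in its place. Its SE and how alike the pigs were in it depend on that number too.

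B3GALT1 was low in LT and moderate in ST. The LT libraries held 0.657, 0.404 and 0.675 FPKM and the ST libraries 5.53, 6.20 and 4.05. Every ST library lay above every LT library, and pig 2 had both the lowest LT value and the highest ST value. The LT mean of 0.579 ± 0.152 (SD, n = 3) compares with an ST mean of 5.26 ± 1.10 (SD, n = 3), 9.09 times higher, with a log2 difference of 2.99 (SE 0.26). In pigs 1, 2 and 3 the difference was 2.89, 3.65 and 2.42, and with 1 in place of 0.1 on the log2 scale it was 1.98 over the 6 libraries. B3GALT1 lay above 35.9% of the genes tested in LT and above 71.1% in ST.

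CLIP4 was the most abundant of the 3 genes in both muscles. The LT libraries held 4.48, 3.47 and 4.29 FPKM and the ST libraries 23.2, 16.0 and 25.0. Pig 2 had the lowest value in each muscle, and its ST value was still 3.58 times the highest LT value. The LT mean of 4.08 ± 0.537 (SD, n = 3) compares with an ST mean of 21.4 ± 4.75 (SD, n = 3), 5.25 times higher, and the log2 difference was 2.35 (SE 0.22), with 2.35, 2.18 and 2.52 in the pigs. CLIP4 lay above 69.0% of the genes tested in LT and above 91.2% in ST.

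In both muscles the order was CLIP4, B3GALT1, GAL3ST1, and no library of one gene overlapped with a library of the next within a muscle. Between the libraries of ST, the SD was 5.59% of the mean for GAL3ST1, 20.9% for B3GALT1 and 22.2% for CLIP4. Ranked by log2 difference among all genes tested, they stood at places 9, 23 and 60 of those higher in ST. In the comparison of all genes with limma, 81 genes, 0.412% of those tested, were called higher in ST at an adjusted p under 0.05 and a log2 difference above 1. The 3 genes are among them, from which nothing is read, since this contrast chose them.

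**Figure D1:**
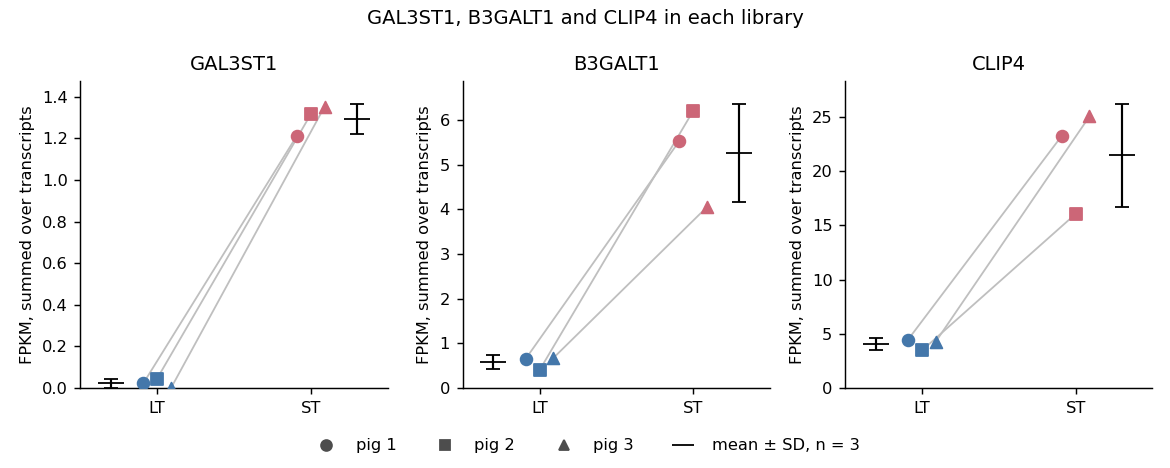
FPKM of GAL3ST1, B3GALT1 and CLIP4, summed over transcripts, in LT and ST, with a symbol for each pig, a line joining the muscles of 1 pig and the mean ± SD of 3 libraries at the side of each group. The y axes are linear and differ between panels. All 3 ST libraries lie above all 3 LT libraries for each gene, from 4.05 to 6.20 against 0.404 to 0.675 for B3GALT1.

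The files place GAL3ST1 on the minus strand at chr14:47457784-47485609 of the Sscrofa11.1 assembly and give it 2 protein-coding transcripts. The longer one, ENSSSCT00000010966, has 11 exons and 2685 bases. All 3 LT libraries list it at 0, and the ST libraries at 1.12, 1.27 and 1.34 FPKM, where it made up 92.4% to 99.2% of the sum of the gene. The shorter one, ENSSSCT00000047446, has 3 exons and ended at 47476462, close to the RefSeq end of the gene at 47476459. Its FPKM was 0.0228 and 0.0462 in LT of pigs 1 and 2 and 0 in pig 3, against 0.0928, 0.0468 and 0.0110 in ST. The muscles overlapped in it, and no library reached the 0.1 FPKM needed for a test. The higher level of GAL3ST1 in ST was thus assigned to the 11-exon transcript.

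That transcript reaches into the neighbour PES1, a gene of ribosome biogenesis on the same strand, and the spans of both genes share 8812 bp. PES1 itself was at 6.35, 7.29 and 9.72 FPKM in LT and at 7.77, 7.67 and 8.61 in ST. The values overlapped, with a log2 difference of 0.06 (SE 0.20, adjusted p = 0.902 from limma). When FPKM of GAL3ST1 and PES1 were added up, the difference was 0.27, where PES1 makes up most of the sum in both muscles. Without the 11-exon transcript the difference of GAL3ST1 alone was 0.27 too, from values that all lie below the 0.1 that was added. Neither value can tell to which gene the fragments belong. How the fragments were divided between both genes was not tested, and the level of GAL3ST1 in ST is uncertain for that reason.

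B3GALT1 lies on the plus strand at chr15:74236390-74341441, and its 5 transcripts were not divided alike in the muscles. RefSeq starts the gene 463557 bp earlier. In LT, ENSSSCT00000049407 with 4 exons gave 72.3% of the mean FPKM, with 0.529, 0.162 and 0.565 in the libraries, and in ST it gave 18.3%, with 0.924, 1.22 and 0.741. In ST, ENSSSCT00000070475, which also has 4 exons but starts at 74298409, within the gene, gave the largest share, 53.4%, with 3.39, 3.04 and 2.001 FPKM. In LT it was at 0.0271, 0.218 and 0.110 and gave 20.5%. The lead thus passed from the one transcript to the other between the muscle means, although in LT of pig 2 ENSSSCT00000070475 already stood above ENSSSCT00000049407.

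A transcript of 5 exons, ENSSSCT00000085350, was at 0.821, 1.52 and 0.986 FPKM in ST, 21.0% of the mean. It was listed at 0 in LT of pigs 1 and 3 and at 0.0218 in pig 2. ENSSSCT00000070167, with 3 exons and 6616 bases, was between 0.307 and 0.412 in ST and at or below 0.00827 in LT. Each of these 4 transcripts was higher in every ST library than in every LT library. Nothing is read from this, since their gene was chosen as higher in ST. The remaining one, ENSSSCT00000075445, stayed below 0.1 FPKM in all 6 libraries. Without ENSSSCT00000070475 the difference of B3GALT1 was 2.28, so the other transcripts carried it too. Transcripts of a gene share exons, and their division depends on how fragments were assigned.

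CLIP4 lies on the minus strand at chr3:110111153-110181127, with both ends within 138 bp of those of RefSeq. It has 1 transcript, ENSSSCT00000059137, with 16 exons and 4399 bases, so the values of the gene are those of this transcript. An assembled locus without annotation, XLOC_073899, covers 69534 bp of it on the opposite strand. It was at 0.206, 0.155 and 0.162 FPKM in LT and at 0.749, 0.495 and 0.691 in ST, without overlap, with pig 2 lowest in both muscles as for CLIP4. The log2 difference was 1.43 (SE 0.27, adjusted p = 0.0628 from limma), and with the pig as a block it was called, at an adjusted p of 0.0343 from limma. Its level was 3.78% to 4.60% of that of CLIP4 in LT and 2.76% to 3.22% in ST. The library kit keeps the strand, and whether the counting used it was not stated, so reads of both strands may not be fully told apart.

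**Figure D2:**
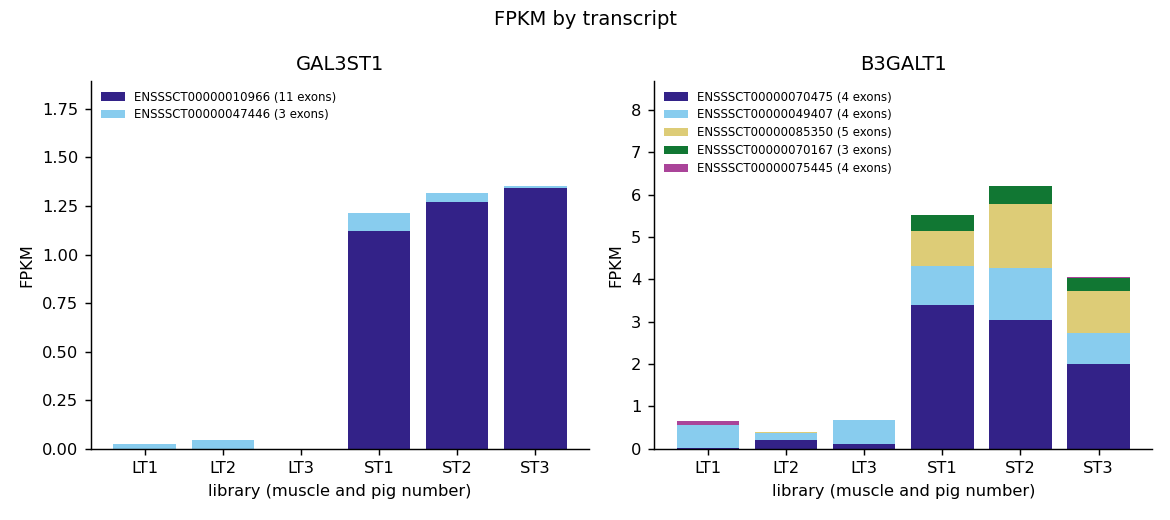
Stacked bars of FPKM by transcript for GAL3ST1 and B3GALT1 in each library, LT1 to LT3 and ST1 to ST3, where the number is that of the pig. The 11-exon transcript fills 92.4% to 99.2% of the GAL3ST1 bars in ST and is absent from the LT bars, and ENSSSCT00000070475 is the largest part of the B3GALT1 bars in ST.

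Within their families the 3 genes took a larger share of the summed FPKM in ST, which largely follows from their choice as higher there. None of their measured relatives was called by limma, where 0.574% of all genes tested were. GAL3ST1 had 2 measured relatives, the galactose sulfotransferases GAL3ST3 and GAL3ST4. It made up 5.06%, 9.13% and 0% of the sum of the 3 genes in LT and 76.4%, 72.5% and 68.0% in ST. These ST shares, and the ST sum of the family below, rest on ENSSSCT00000010966, which reaches into PES1. They are uncertain for the same reason as the level of GAL3ST1. GAL3ST4 was the most abundant of them in every LT library, at 0.255, 0.323 and 0.366 FPKM against 0.362, 0.443 and 0.571 in ST. Its values overlapped, with a log2 difference of 0.42 (SE 0.27, adjusted p = 0.440 from limma). GAL3ST3, in contrast, was at 0.174, 0.136 and 0.354 in LT and at 0.0125, 0.0567 and 0.0657 in ST, without overlap, with a difference of -1.11 (SE 0.36) and an adjusted p of 0.159 from limma. The summed FPKM of the family had a mean of 0.559 ± 0.142 (SD, n = 3) for LT and of 1.80 ± 0.202 (SD, n = 3) for ST.

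Of the B3GALT family, 4 genes were measured. B3GALT6, which adds galactose to the linker of proteoglycans, led in LT with 4.90, 5.06 and 4.87 FPKM, 71.5% ± 1.92 (SD, n = 3) of the sum. In ST it was at 3.56, 2.60 and 3.16, without overlap, with a log2 difference of -0.66 (SE 0.19, adjusted p = 0.120 from limma). The share of B3GALT1 was 8.36% ± 2.17 (SD, n = 3) for LT and 55.3% ± 8.29 (SD, n = 3) for ST, where it stood above B3GALT6 in each library. B3GALT4 was at 1.12 ± 0.0351 FPKM in LT and 0.834 ± 0.171 in ST (SD, n = 3), a difference of -0.40. B3GALT2 was at 0.275 ± 0.09995 and 0.277 ± 0.199 (SD, n = 3), with overlapping values.

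CLIP1, which tracks the growing ends of microtubules, was the leading gene of its family in both muscles. It was at 55.3, 58.9 and 67.7 FPKM in LT and at 56.6, 57.4 and 59.6 in ST, with overlap and a difference of -0.06 (SE 0.17, adjusted p = 0.880 from limma). The share of CLIP4 was 6.22% ± 1.01 in LT and 26.4% ± 4.36 in ST (SD, n = 3), and that of CLIP1 was 91.9% and 71.8%. CLIP2 was near 1 FPKM, at 0.963 ± 0.182 and 1.06 ± 0.399 (SD, n = 3), and CLIP3, a linker of membrane traffic, was at 0.272 ± 0.04998 and 0.393 ± 0.164 (SD, n = 3). Both overlapped between the muscles.

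The other genes of the pathways were read from 3 lists. Over all 19672 genes tested, 113 or 0.574% were called in either direction, 1396 or 7.1% passed an unadjusted p of 0.05 with a log2 difference above 1 in size, and 18.8% had an unadjusted p below 0.05. LT and ST did not overlap in 24.7%, and the median log2 difference was 0.13. With quantile normalization this median was -0.0056.

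The list of sulfatide metabolism has 19 genes, of which 17 were tested beside GAL3ST1. None was called, 2 had an unadjusted p below 0.05, and LT and ST did not overlap in 4. The median log2 difference was 0.13, that of all genes. UGT8, which makes the galactosylceramide that GAL3ST1 sulfates, was at 0.0139, 0.604 and 0.123 FPKM in LT and 0.320, 0.357 and 0.0227 in ST. Neither muscle was the higher one, and the difference was 0.13 (SE 0.74). FA2H, which hydroxylates the fatty acid of these lipids, stayed at or below 0.0648 in all libraries. ARSA, the lysosomal enzyme that removes the sulfate again, was at 0.616 ± 0.220 and 0.818 ± 0.275 (SD, n = 3), and GALC, which then removes the galactose, at 2.47 ± 0.401 and 2.40 ± 0.599 (SD, n = 3). Their values overlapped.

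The most abundant genes of this list were PSAP, the precursor of the saposins, ASAH1, acid ceramidase, and CERS2, a ceramide synthase. PSAP and ASAH1 varied more within a muscle than between the muscles, with differences of 0.13 and 0.0016. CERS2 was at 6.45, 6.40 and 4.90 FPKM in LT and 10.8, 9.25 and 9.24 in ST, without overlap, and did not pass the test (0.72, SE 0.18, adjusted p = 0.103 from limma).

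Of the 25 galactosyl and chain transferases listed with B3GALT1, 22 were tested. None was called, 9 had an unadjusted p below 0.05, LT and ST did not overlap in 10, and the median difference was 0.11. With the pig as a block 3 were called, where 4.06% of all genes were. B3GNT2 and B3GNT3 put N-acetylglucosamine on galactose and so lengthen the chains that galactosyltransferases act on. B3GNT2 was at 0.741, 1.09 and 0.783 FPKM in LT and 2.05, 2.47 and 2.17 in ST, a difference of 1.28 (SE 0.22), with an adjusted p of 0.0580 from limma and of 0.0282 with the block. B3GNT3 was at 1.14 ± 0.319 and 2.44 ± 0.357 (SD, n = 3), a difference of 1.06 (SE 0.26), with 0.0944 and 0.0359 for the same adjusted p from limma. Both were higher in ST in every pig.

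B3GNT8, of the same enzyme class, went the other way. It was at 0.706, 0.796 and 1.06 FPKM in LT and at 0.330, 0.173 and 0.346 in ST. The difference was -1.34 (SE 0.30), with an adjusted p of 0.0759 from limma and of 0.0416 with the block. The most abundant genes of the list were B3GALNT2, C1GALT1 and B4GALT5. B3GALNT2, which acts on dystroglycan, was at 14.03 ± 3.75 in LT and 8.19 ± 1.82 in ST (SD, n = 3), without overlap, and did not pass the test (-0.76, SE 0.25, adjusted p = 0.163 from limma). B4GALT5, which makes lactosylceramide, was at 4.82 ± 0.558 and 8.402 ± 2.71 (SD, n = 3), with an adjusted p of 0.161 from limma. C1GALT1, which starts the core of mucin-type sugar chains, overlapped, with a difference of 0.23.

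The list of CAP-Gly and microtubule plus-end proteins had the narrowest range of the 3 lists. Of its 20 genes, 19 were tested, none was called, 1 had an unadjusted p below 0.05, and the median difference was 0.18, with a range from -0.69 to 0.58. LT and ST did not overlap in 2. Its most abundant genes after CLIP1 were PAFAH1B1, a regulator of dynein, at 28.6 ± 1.346 and 26.2 ± 4.02 FPKM (SD, n = 3), and TBCB, a tubulin chaperone with a CAP-Gly domain, at 22.2 ± 2.25 and 23.5 ± 1.88 (SD, n = 3). The sum of the list was between 237 and 272 in LT and between 248 and 262 in ST.

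**Figure D3:**
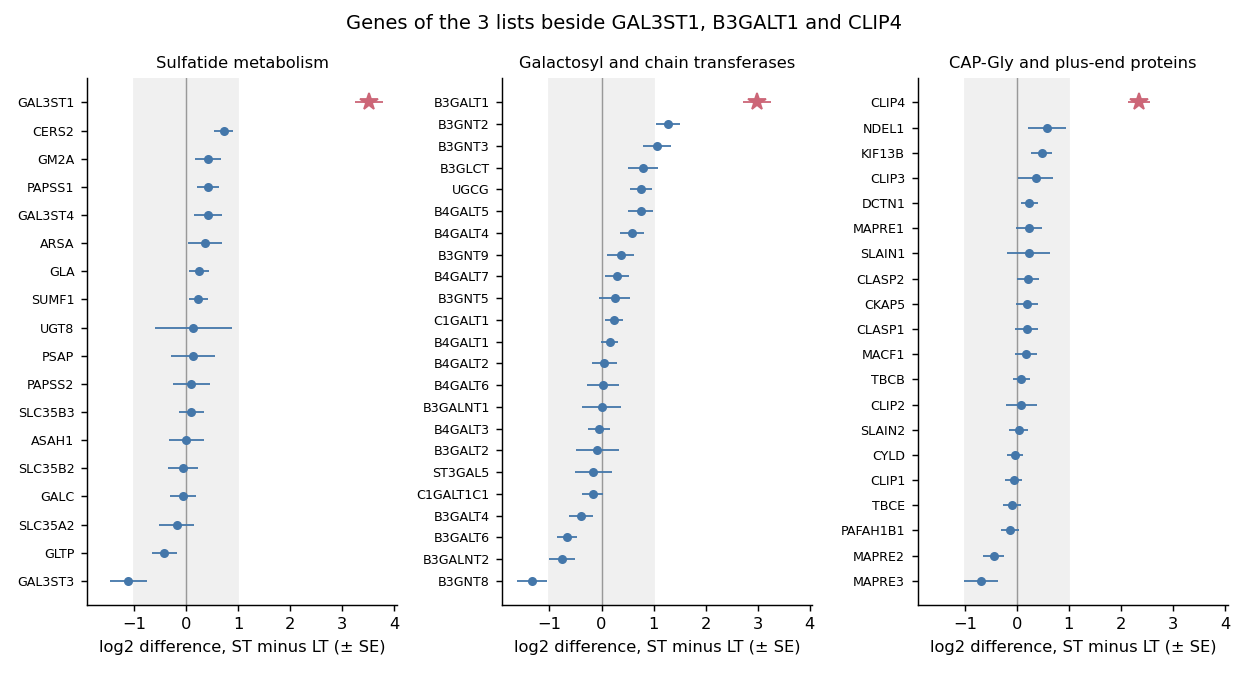
Log2 difference (ST minus LT, ± SE from limma, 3 libraries per muscle) of the tested genes of 3 lists, ordered by difference, with GAL3ST1, B3GALT1 and CLIP4 as stars in the panel of their list. The grey band marks differences of 1 or less in size. The genes of the lists lie between -1.34 and 1.28, and the stars at 3.52, 2.99 and 2.35.

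Within 100000 bp of the spans used here for the 3 genes lie 8 lncRNA transcripts, and none overlaps one of these spans. Of the 13635 lncRNAs tested, limma called 2 or 0.0147%, and LT and ST did not overlap in 12.3%. Of the 7 tested near the 3 genes, limma called none, none had an unadjusted p below 0.05, where 6.56% of all lncRNAs did, and the muscles did not overlap in 1. That one was LNC_003737, an unannotated intronic lncRNA of 4 exons at chr14:47392687-47396189, 61595 bp from GAL3ST1. It was at 0.446, 0.287 and 0.326 FPKM in LT and at 0.781, 0.519 and 0.684 in ST, higher in ST in every pig. The difference was 0.75 (SE 0.33, adjusted p = 0.527 from limma).

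The other lncRNAs were low and uneven between libraries of the same muscle. LNC_003736, of the same locus, was listed at 0 in 2 LT libraries and 1 ST library, and at 0.580 to 1.09 in the rest. LNC_003738 and LNC_003739, 10704 bp from GAL3ST1, overlapped between the muscles, with 0.294 ± 0.0428 and 0.330 ± 0.191 FPKM (SD, n = 3) for LNC_003738. Both cover the gene TCN2 on the other strand, so their reads and those of TCN2 may not be fully told apart. Near the B3GALT1 span used here the only lncRNA was LNC_004099, at 23759 bp. It had a value above 0 in both muscles of pig 1 and in no other library, and lies within the longer RefSeq span. Near CLIP4, LNC_007167 at 8490 bp had a difference of 0.13 (SE 0.59) and LNC_007168 at 32080 bp one of -1.01 (SE 0.61), and ENSSSCT00000075329 stayed below 0.1. At such levels a change would have to be large to be detectable. In windows around RefSeq spans, 9 lncRNAs were tested and limma called none.

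Of 16 annotated protein-coding genes in the windows around the spans used here, 12 were tested. None was called, 3 had an unadjusted p below 0.05, and the median difference was 0.47, against 0.13 for all genes. LT and ST did not overlap in 3, each time with ST higher, which 16.6% of all genes showed. MTFP1, which acts in the division of mitochondria, lies 61051 bp from GAL3ST1 and was at 7.34, 7.42 and 6.05 FPKM in LT and 11.4, 15.1 and 16.1 in ST. The difference was 1.01 (SE 0.20), with an adjusted p of 0.0660 from limma and of 0.0382 with the pig as a block, under which it was called. LNC_003736 and LNC_003737 lie within the span of MTFP1 on the other strand, so their reads and those of MTFP1 may not be fully told apart.

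SLC35E4, a member of a solute carrier family at 34578 bp from GAL3ST1, was at 3.20, 3.44 and 4.33 FPKM in LT and 6.72, 5.99 and 9.39 in ST. The difference was 0.98 (SE 0.23, adjusted p = 0.0830 from limma), and it was called without ST of pig 2, at an adjusted p of 0.0417 from limma. An unannotated mRNA locus, XLOC_040922, covers SLC35E4 on the other strand, so their reads may not be fully told apart. Its difference was 0.78 (SE 0.27, adjusted p = 0.183 from limma), without overlap between the muscles. PCARE, known from the cilium of photoreceptors, lies 28408 bp from CLIP4 on the other strand. LNC_007168 lies within the span of PCARE on the strand opposite to it, so their reads may not be fully told apart. PCARE was at 0.0707, 0.0401 and 0.0734 in LT and 0.447, 0.243 and 0.214 in ST, with a difference of 1.28 (SE 0.32, adjusted p = 0.1002 from limma). Genes as close as these did not share the difference of GAL3ST1: TCN2, at 10714 bp, had 0.44 (SE 0.21) and SEC14L2, at 65284 bp, -0.66 (SE 0.39). The only tested neighbour of the B3GALT1 span used here, STK39, had 0.26 (SE 0.24), and WDR43, 50828 bp from CLIP4, had 0.24 (SE 0.19). XIRP2 lies within 100000 bp of the RefSeq span of B3GALT1. Its difference was 0.88 (SE 0.32, adjusted p = 0.191 from limma), without overlap between the muscles.

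**Figure D4:**
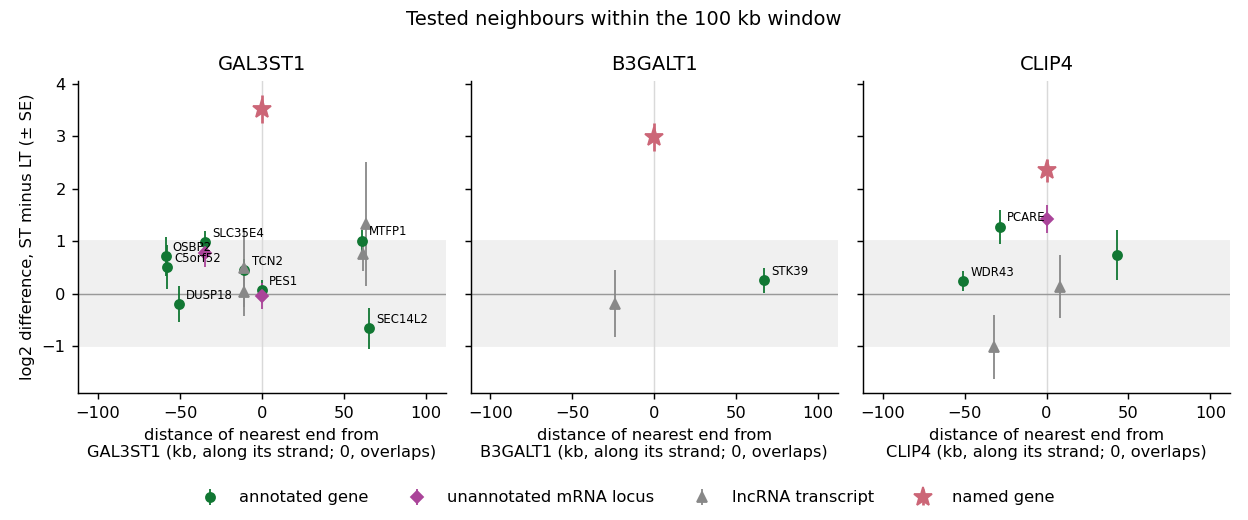
Log2 difference (ST minus LT, ± SE from limma, 3 libraries per muscle) of the tested genes, unannotated mRNA loci and lncRNAs within the window, by the distance in kb of their nearest end from GAL3ST1, B3GALT1 or CLIP4 along the strand of that gene, where 0 means overlap. The grey band marks differences of 1 or less in size. The stars of the 3 genes stand above all their neighbours, of which the unannotated locus over CLIP4 is highest among mRNAs, at 1.43.

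By the root mean square difference of centred log2 values over the 6 libraries, the genes with a symbol and a mean of at least 1 FPKM that were most like each of the 3 genes were named, 5 for each. Likeness rests on few libraries of shared pigs, and the step between the muscles makes up most of it. For GAL3ST1 they were SLC2A5, a fructose transporter (0.401), SPRY4, an inhibitor of receptor tyrosine kinase signalling (0.453), B3GALT1 (0.483), HOXC11, a homeobox gene of the hind part of the body (0.545), and C11orf52 (0.591). SLC2A5 was at 1.351, 0.993 and 1.39 FPKM in LT and 18.7, 10.44 and 14.8 in ST. For B3GALT1 they were RETREG1, a receptor for autophagy of the endoplasmic reticulum (0.313), PRKG1, a kinase activated by cGMP (0.383), SLC2A5 (0.420), SPRY4 (0.455) and C11orf52 (0.470). RETREG1 was at 18.1, 10.6 and 16.5 in LT and 70.8, 99.3 and 80.5 in ST. Like B3GALT1, RETREG1 and PRKG1 had their lowest LT and highest ST value in pig 2, a pattern that this measure selects for.

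For CLIP4 the list held MYBPC1, the slow form of myosin-binding protein C (0.178), PRRX1, a homeobox gene of mesenchyme (0.219), C11orf52 (0.242), RCAN2, a regulator of calcineurin (0.258), and ACTN2, an actinin of the Z-disc (0.269). MYBPC1 was at 608, 435 and 535 FPKM in LT and 2547, 1539 and 2431 in ST. All 5 had their lowest ST value in pig 2, as CLIP4 did, a pattern that this measure selects for. By Pearson correlation in place of the root mean square, 0, 0 and 1 of the 5 genes were shared for GAL3ST1, B3GALT1 and CLIP4, and 524, 588 and 762 genes had r above 0.9.

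ST of pig 2 stood apart from the other ST libraries in fibre-type genes. The summed FPKM of 8 slow-fibre markers was between 4758 and 7314 in LT, and 39469, 6507 and 39946 in ST of pigs 1, 2 and 3. That of 8 fast-fibre markers was between 23380 and 32200 in LT, and 5521, 21251 and 1601 in ST. Of the slow-fibre markers 8 and of the fast-fibre markers 5 passed an unadjusted p of 0.05 with a log2 difference above 1 in size, and limma called none at an adjusted p below 0.05. With the pig as a block limma called 4 of the 8 slow-fibre markers and 0 of the fast-fibre markers. In ST of pig 2 the slow-fibre sum lay within the range of LT, although 4 of the 8 markers were above every LT library, and the fast-fibre sum lay below that range. GAL3ST1, B3GALT1 and CLIP4 were at 1.32, 6.20 and 16.0 FPKM in that library. Without it the log2 differences were 3.51, 2.86 and 2.54, against 3.52, 2.99 and 2.35 with it. MYH1, MYH2, MYH4, MYH7 and TTN were not matched to a gene ID by symbol and were not analysed here.

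Markers of other cells were read in the same way. Schwann cells, whose myelin holds sulfatide, had 12 measured markers with sums between 99.1 and 130 FPKM in LT and between 98.5 and 114 in ST. None of the 12 was called or had an unadjusted p below 0.05 from limma. The sums of endothelial markers did not overlap, with 64.1 to 92.9 in LT and 138 to 210 in ST. Of the 8 measured, 2 were called, PECAM1 with a difference of 1.39 (SE 0.22, adjusted p = 0.0438 from limma) and CDH5 with 1.22 (SE 0.18, adjusted p = 0.0408 from limma). With the pig as a block 4 of the 8 were called. Without the block, both calls were lost with quantile normalization and when any library but ST of pig 2 was left out. Of all genes, 0.412% were called higher.

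Smooth muscle and pericyte markers summed to between 107 and 122 in LT and between 184 and 246 in ST, with 0 of 6 called and 4 with an unadjusted p below 0.05 from limma. With the pig as a block 1 was called, RGS5, a pericyte gene (1.21, SE 0.20, adjusted p = 0.0221 from limma). Of 8 adipocyte markers, LPL, a lipase of vessel walls that muscle fibres make too, was called (1.41, SE 0.18, adjusted p = 0.0259 from limma), a call likewise lost when any library but ST of pig 2 was left out. The other 7 had negative differences that were not called, such as LEP, the hormone leptin, with -1.04 (SE 0.29, adjusted p = 0.116 from limma) and no overlap, and PLIN1, a coat protein of lipid droplets, with -1.11 (SE 0.57), and the median of the list was -0.52. The adipocyte sums overlapped, between 358 and 472 in LT and between 412 and 500 in ST. Macrophage markers (27.4 to 34.9 and 28.0 to 53.0), fibroblast markers (632 to 1346 and 665 to 1239) and general skeletal muscle markers (10476 to 11080 and 10590 to 11493) overlapped too, with none called by limma, 1, 0 and 2 below an unadjusted p of 0.05, and 0, 0 and 1 called with the pig as a block. With FPKM multiplied by transcript length before summing, mitochondrial transcripts made up 2.91% to 4.25% of the sum in LT and 6.15% to 8.48% in ST. The part of fibre type, vessels or mitochondrial content in the differences of the 3 genes was not tested.

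**Figure D5:**
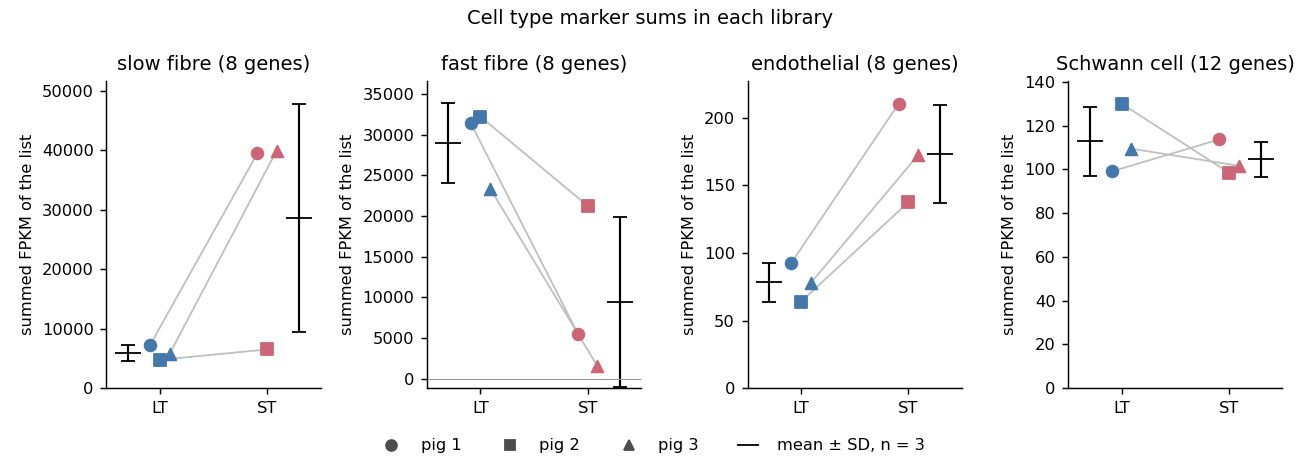
Summed FPKM of slow-fibre, fast-fibre, endothelial and Schwann cell markers in LT and ST, with a symbol for each pig, a line joining the muscles of 1 pig and the mean ± SD of 3 libraries at the side. The slow-fibre sum of ST is 6507 in pig 2 and 39469 and 39946 in the other pigs, the endothelial sums do not overlap, and the Schwann cell sums do.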

How the data were processed

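Reads were filtered by the authors with SOAPnuke, and HISAT2 2.1.0 aligned them to the pig genome (Sscrofa11.1). Transcripts were then built by StringTie, and the deposited FPKM give 1 value per transcript and library, beside its position, exon number and length. Versions of the other tools are not given in the sources used here. FPKM were summed per mRNA gene ID. Features above 0.1 FPKM in at least 1 library entered limma 3.58.1 (R 4.3.3) as log2(FPKM + 0.1), the variance being moderated with a trend, for 19672 genes and, in 1 fit, 52102 transcripts. A call needed a Benjamini-Hochberg adjusted p below 0.05 and an absolute log2 fold change above 1. Other values came from Python 3.11.15 with pandas 2.3.3 and numpy 2.4.6, and plots from matplotlib 3.10.9. An exact permutation test with 3 against 3 libraries cannot go below p = 0.1 and was not used. The fits were tested on simulated data, with changes given to features drawn from the more abundant ones. Of 100 genes and 100 transcripts changed by 2 on the log2 scale, limma called 69 and 37. With a change of 4 it called 98 and 68. Among the unchanged features it called 10 genes and 7 transcripts. Smaller changes may thus have been missed where none was called.

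The 3 genes and the lists were chosen with earlier results of these data known. The genes named were the 3 genes, their neighbours, paralogs and direct pathway enzymes, the list genes called or past an unadjusted p of 0.05 with a log2 fold change above 1 in size, the 3 most abundant of each list, and the 5 most alike. C1GALT1, C1GALT1C1, CASQ2, CLIP2 and TPM3 were matched by position to RefSeq, and 13 list genes stayed unmatched. Same-numbered libraries were taken to come from the same pig, which neither the Methods nor the labels state outright. The Methods name 3 pigs for both muscles, and the labels number the libraries. The residuals of each such pair correlated, with r from 0.261 to 0.292, against -0.185 to -0.109 between different numbers. Centring within a muscle partly forces the negative values. Alternatives were other pseudocounts and filters, the pig as a block, FPKM without mitochondrial transcripts, quantile normalization, no variance trend, other windows, another measure of likeness and leaving out each library. Dropping single transcripts, adding PES1 to GAL3ST1 and windows around RefSeq spans were added after the data were seen. No genome sequence was used here.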

Additional observations from a re-analysis of the deposited data

How the results depend on the processing

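The direction of the 3 genes was fixed by their choice, and filters, the block and the variance trend cannot change their log2 difference, so only its size is given. The log2 difference of GAL3ST1 was 5.62 with a pseudocount of 0.01 and 1.16 with 1. It was 0.27 both without ENSSSCT00000010966 and when summed with PES1, neither of which can tell to which gene the fragments belong. The log2 difference of B3GALT1 was 1.98 with a pseudocount of 1 and 2.28 without ENSSSCT00000070475. CLIP4 stayed between 2.12 and 2.54. Leaving out 1 library gave 3.38 to 3.65 for GAL3ST1, 2.79 to 3.16 for B3GALT1 and 2.22 to 2.54 for CLIP4.

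The number of genes called by limma moved far more, from 113 (81 higher in ST) to 6 with no filter, 61 (32 higher) with quantile normalization, 29 with no variance trend, 799 with the replicate block, and 12 to 991 when 1 library was left out, 991 without ST of pig 2. Transcripts called went from 76 to 37 with a pseudocount of 1, 26 with no filter, 40 with a filter above 1 FPKM, 2 with the replicate block, and 46 to 256 when 1 library was left out, 256 without ST of pig 2. The cause was not tested. Called neighbours went from 0 to 1 with the block and 0 to 1 when 1 library was left out (1 without ST of pig 2). Called galactosyl and chain transferases went from 0 to 3 with the block, 1 with a filter above 1 FPKM, 1 without mitochondrial transcripts, and 0 to 1 when 1 library was left out (1 without ST of pig 2). No lncRNA near the 3 genes, and no gene of the sulfatide or CAP-Gly lists, was called under any alternative run. Apart from XLOC_073899, MTFP1, B3GNT2, B3GNT3 and B3GNT8, among the lists and neighbours the block changed calls only of cell markers, from 0 to 4 for slow fibres, 2 to 4 for endothelial cells, 0 to 1 for smooth muscle and pericytes and 0 to 1 for skeletal muscle.

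Directions turned only where the difference was near 0. GALC was at 0.0024 and CLIP1 at 0.00051 without mitochondrial transcripts, and ASAH1 at -0.13, CLIP2 at -0.054 and PES1 at -0.10 with quantile normalization. With 1 library left out the differences ran from -0.47 to 0.85 for UGT8, -0.21 to 0.15 for GALC, -0.29 to 0.41 for PSAP, -0.19 to 0.38 for ASAH1, -0.48 to 0.21 for B3GALT2, -0.18 to 0.29 for CLIP2, -0.12 to 0.020 for CLIP1 and -0.072 to 0.23 for PES1. PECAM1, CDH5 and LPL lost their call when any library but ST of pig 2 was left out, with an adjusted p from 0.0863 to 0.180 from limma, and PECAM1 and CDH5 lost it with quantile normalization too (0.0619 and 0.0574). Depth per transcript is unknown, and genes below 0.1 FPKM were not tested.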
